A study of Mus musculus with 12 samples.

Results

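The Ifit genes of the mouse were followed in fibroblasts that had received double-stranded RNA. The genes taken by symbol were Ifit1, Ifit2, Ifit3, Ifit3b and Ifit1bl1, through every array probe whose RefSeq accession belonged to one of them. They made up 5 of 15445 genes tested and 6 of 55681 probes, with 2 probes for Ifit3b and 1 for each of the other genes. All 5 passed the filter on dim probes, Ifit1bl1 through its treated arrays.

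RNA of mouse embryonic fibroblasts (MEFs) was hybridised to 12 single-colour Agilent arrays, 3 in each of 4 groups. The groups were GADD34ΔC/ΔC (ΔC) cells given poly(I:C), wild-type (WT) cells given poly(I:C), untreated ΔC cells and untreated WT cells. Poly(I:C) was of high molecular weight, was given at 2.5 µg/ml for 6 h and was carried into the cells by lipofectamine. No array of cells given the lipid alone is listed, so that lipid and poly(I:C) cannot be told apart. The labels state no strain, embryo or clone behind either line, and they do not say which bases the ΔC allele lacks. The labels state 3 independent experiments and number the arrays of each group 1 to 3.

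Ifit genes encode interferon-induced proteins built from tetratricopeptide repeats. IFIT1 binds RNA whose 5′ cap lacks the methyl mark of the host's own messages and holds that RNA back from translation, while IFIT2 and IFIT3 bind IFIT1 and one another. Transcription of the genes is switched on by interferon regulatory factors during RNA sensing and by the complex ISGF3 after interferon binds its receptor, both of which read the interferon-stimulated response element (ISRE). GADD34, encoded by Ppp1r15a, guides a phosphatase to the translation factor eIF2α, and poly(I:C) is a man-made duplex of inosine and cytidine strands that sets off the same sensors as viral RNA.

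The family lies in 1 cluster on chromosome 19, where the reference table gives the order Ifit2, Ifit3, Ifit1bl1, Ifit3b, Ifit1bl2 and Ifit1. Promoter windows of 300 bases, 250 before and 50 after each annotated start, were taken from RefSeq on build GRCm38.p6 and searched on both strands for the ISRE core, here the letters GAAA repeated with any 2 bases between them (TTTC, any 2 bases, TTTC on the other strand). Counted by window, 1131 of 32851 windows of all genes held a match, or 3.44%. Counted by gene, which is another unit, 4 of the 5 members held a match, with those of 2 starts searched in 2 windows. The 4 windows below are shown because they carry those matches, which stand in capitals and all lie on the strand opposite to the gene. Ifit1 is read from chr19:34640639-34640938 on the plus strand, Ifit3 from chr19:34583279-34583578 on the plus strand, Ifit3b from chr19:34607707-34608006 on the plus strand, and the second of the Ifit1bl1 starts from chr19:34601919-34602218 on the minus strand.
Ifit1: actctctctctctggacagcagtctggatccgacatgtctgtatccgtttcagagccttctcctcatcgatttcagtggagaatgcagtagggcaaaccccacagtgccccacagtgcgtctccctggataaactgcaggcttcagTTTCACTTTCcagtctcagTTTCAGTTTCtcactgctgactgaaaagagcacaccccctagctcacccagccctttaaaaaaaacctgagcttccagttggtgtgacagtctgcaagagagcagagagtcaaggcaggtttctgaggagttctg
Ifit3: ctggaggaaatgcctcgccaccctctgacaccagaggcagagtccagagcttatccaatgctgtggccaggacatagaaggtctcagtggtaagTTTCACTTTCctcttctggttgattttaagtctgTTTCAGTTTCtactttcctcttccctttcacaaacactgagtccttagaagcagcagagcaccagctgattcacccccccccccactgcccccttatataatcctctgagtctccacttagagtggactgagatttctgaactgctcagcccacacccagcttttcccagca
Ifit3b: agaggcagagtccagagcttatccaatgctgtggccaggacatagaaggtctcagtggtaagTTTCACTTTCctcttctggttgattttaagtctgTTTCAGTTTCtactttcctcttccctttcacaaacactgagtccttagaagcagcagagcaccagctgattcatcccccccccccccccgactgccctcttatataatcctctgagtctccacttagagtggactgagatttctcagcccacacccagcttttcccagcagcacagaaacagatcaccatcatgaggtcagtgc
Ifit1bl1: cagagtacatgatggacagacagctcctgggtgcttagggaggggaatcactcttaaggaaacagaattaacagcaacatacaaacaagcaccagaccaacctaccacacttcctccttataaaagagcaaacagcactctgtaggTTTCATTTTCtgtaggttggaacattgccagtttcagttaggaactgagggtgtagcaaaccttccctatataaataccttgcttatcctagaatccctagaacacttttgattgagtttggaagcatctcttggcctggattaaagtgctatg

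In Ifit1 the matches covered bases 104 to 95 and 85 to 76 before the start. Ifit3 and Ifit3b each held the same pair of 10-base matches, in Ifit3 from 156 and 122 bases before the start and in Ifit3b from 188 and 154. Each of the 2 annotated starts of Ifit1bl1 had 1 match. Neither of the 2 windows of Ifit2 held these letters. Bases outside the windows were not searched, so that this does not show that Ifit2 lacks the element. The gamma-activated site TTCNNNGAA, searched the same way, was found in 8.3% of all windows and in 1 member, Ifit2, so that no member's window held both motifs and no match overlapped another. The windows of Ifit3 and Ifit3b were near copies: 259 of 260 aligned bases were identical (99.6%), with 14 further bases in gaps. The matches of these genes are therefore not independent of each other. The second window of Ifit1bl2, on the opposite strand, shares 245 bases with the window of Ifit1. A match of letters describes the window and does not show that a factor bound there.

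**Figure D1:**
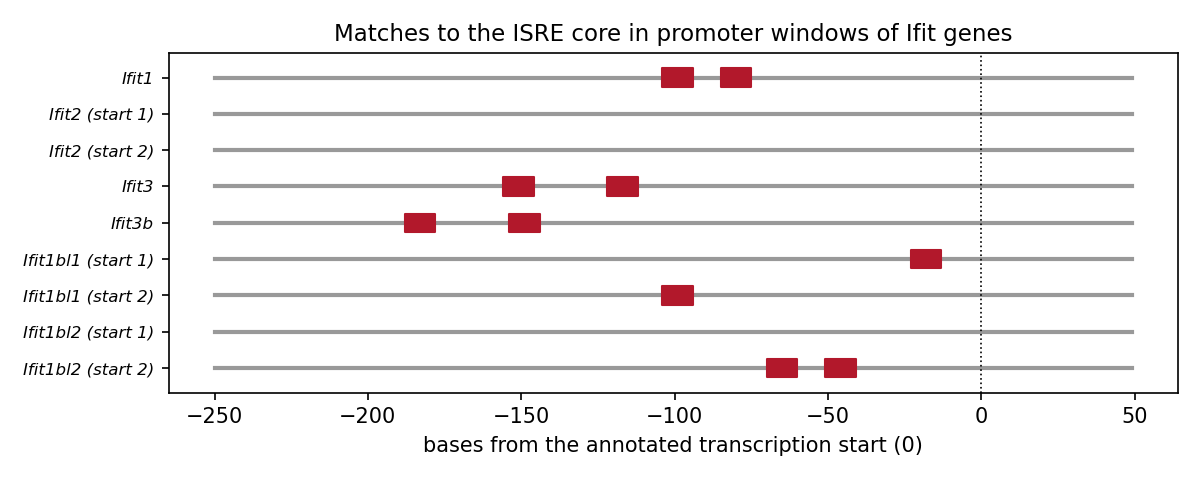
Matches to the ISRE core (red boxes) along promoter windows (grey lines) of the Ifit genes, plotted by the distance in bases from the annotated start at 0; genes with several starts have a line for each. Ifit1, Ifit3 and Ifit3b hold 2 matches each, Ifit1bl1 holds 1 at each start and Ifit2 holds none in its 2 windows. Bases outside the windows were not searched.

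Levels below are log2 of the processed spot intensity minus the 75th percentile of the array, so that 0 is the brightness of a probe at that percentile. They compare arrays for 1 probe and do not rank genes by abundance. Ppp1r15a, the targeted gene, stood at -4.12, -8.14 and -7.20 on ΔC poly(I:C) arrays 1 to 3, against 5.79, 5.83 and 5.81 on WT poly(I:C) arrays. Without poly(I:C) it stood at -7.22, -8.30 and -5.75 on ΔC arrays, against 2.65, 2.62 and 3.36 on WT arrays. Its probe was well above background on all 6 WT arrays and on 1 of 6 ΔC arrays, ΔC poly(I:C) 1. Whether this probe lies in bases that the ΔC allele lacks is not known here, so that a low reading need not mean an absent transcript. Between 60.4% and 67.3% of probes were well above background per array and no spot was saturated. Of 8 fibroblast markers, 7 or 8 were above background per array. Of 6 macrophage markers with a probe, 5, Ptprc and Adgre1 among them, were above background on every array, with Lyz2 on none. Of 4 endothelial markers, Pecam1 and Kdr were above background on every array and Cdh5 and Tek on none. In the authors' deposited table of log2 values, the column of ΔC poly(I:C) 1 correlated with that array's own scanner file at 0.949, against at least 0.999 for the other columns, and the scanner files were used here.

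Poly(I:C) raised all 5 Ifit genes in WT fibroblasts, by 3.27 to 8.53 on the log2 scale. In ΔC fibroblasts it raised Ifit1, Ifit3 and Ifit3b, by 4.93 to 5.49, while Ifit2 and Ifit1bl1 did not pass the test. With poly(I:C), all 5 transcripts stood lower in ΔC cells than in WT cells, with log2 differences of -4.40 to -2.01. Without poly(I:C), none of the 5 passed the test between genotypes. The comparisons share arrays, so that their values are not independent of one another.

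Ifit1, the RNA-binding member, stood at 4.85, 4.60 and 3.77 on ΔC poly(I:C) arrays 1 to 3, against 6.80, 6.74 and 5.71 on WT poly(I:C) arrays. In untreated cells it stood at -0.65, -1.50 and -0.94 on ΔC arrays, against -3.10, -1.47 and -1.77 on WT arrays. The treated arrays lay far above the untreated ones in both genotypes, the treated ΔC arrays all lay below the treated WT arrays, and the untreated genotypes overlapped. In order, the groups ran WT poly(I:C), ΔC poly(I:C), ΔC untreated and WT untreated, with only the last pair of neighbours not separated by the test.

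Ifit2, a partner of IFIT1 that is also tied to cell death in cultured cells, responded least to poly(I:C) of the 5 in both genotypes. On ΔC poly(I:C) arrays it stood at 2.01, 1.64 and 0.97, against 4.74, 4.70 and 2.17 on WT poly(I:C) arrays. Untreated, it stood at 0.88, 0.80 and -0.25 on ΔC arrays, against 0.74, 1.05 and 0.02 on WT arrays. WT poly(I:C) array 3 lay well below its 2 companions and close to the brightest ΔC poly(I:C) array, without overlap. The untreated genotypes were interleaved.

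Ifit3, which binds and steadies IFIT1 in human cells, stood at 4.39, 3.42 and 3.35 on ΔC poly(I:C) arrays, against 7.98, 7.90 and 5.96 on WT poly(I:C) arrays. Untreated, it stood at -0.83, -1.55 and -1.23 on ΔC arrays, against 0.10, 0.16 and -0.72 on WT arrays. Both genotype comparisons were free of overlap, the untreated one by a narrow gap between ΔC array 1 and WT array 3. For the untreated difference limma gave an adjusted p of 0.181, above the threshold of 0.05. The share of all genes free of overlap in untreated cells is not given here, so that this gap alone does not show a basal difference.

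Ifit3b is the near copy of Ifit3. Its brighter probe stood at 3.26, 2.37 and 2.22 on ΔC poly(I:C) arrays, against 6.80, 6.85 and 4.83 on WT poly(I:C) arrays. The same probe stood at -2.57, -3.31 and -2.74 on untreated ΔC arrays, against -1.50, -1.54 and -2.48 on untreated WT arrays. Array by array this is the picture of Ifit3, and since probes for near-identical transcripts can bind both, the values of the 2 genes are not separate measurements with certainty. The dimmer Ifit3b probe stood at 0.37, -0.45 and -0.53 on ΔC poly(I:C) arrays, against 4.06, 4.05 and 2.08 on WT poly(I:C) arrays. It was well above background on 2 of 3 untreated arrays in each genotype, and it ranked the 4 groups as the brighter probe did.

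Ifit1bl1, a mouse relative of Ifit1, was near background before treatment. It stood at -2.32, -2.70 and -4.19 on ΔC poly(I:C) arrays, against 2.21, 2.17 and -0.40 on WT poly(I:C) arrays. Untreated, it stood at -5.83, -5.64 and -6.25 on ΔC arrays, against -6.21, -5.47 and -8.10 on WT arrays. Its probe was well above background on all 6 treated arrays, on 2 of 3 untreated ΔC arrays and on 1 of 3 untreated WT arrays, so that the size of its change rests partly on background readings. The lowest WT reading, on array 3, was an intensity of 2.37, against 10.3 and 16.4 on WT arrays 1 and 2.

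**Figure D2:**
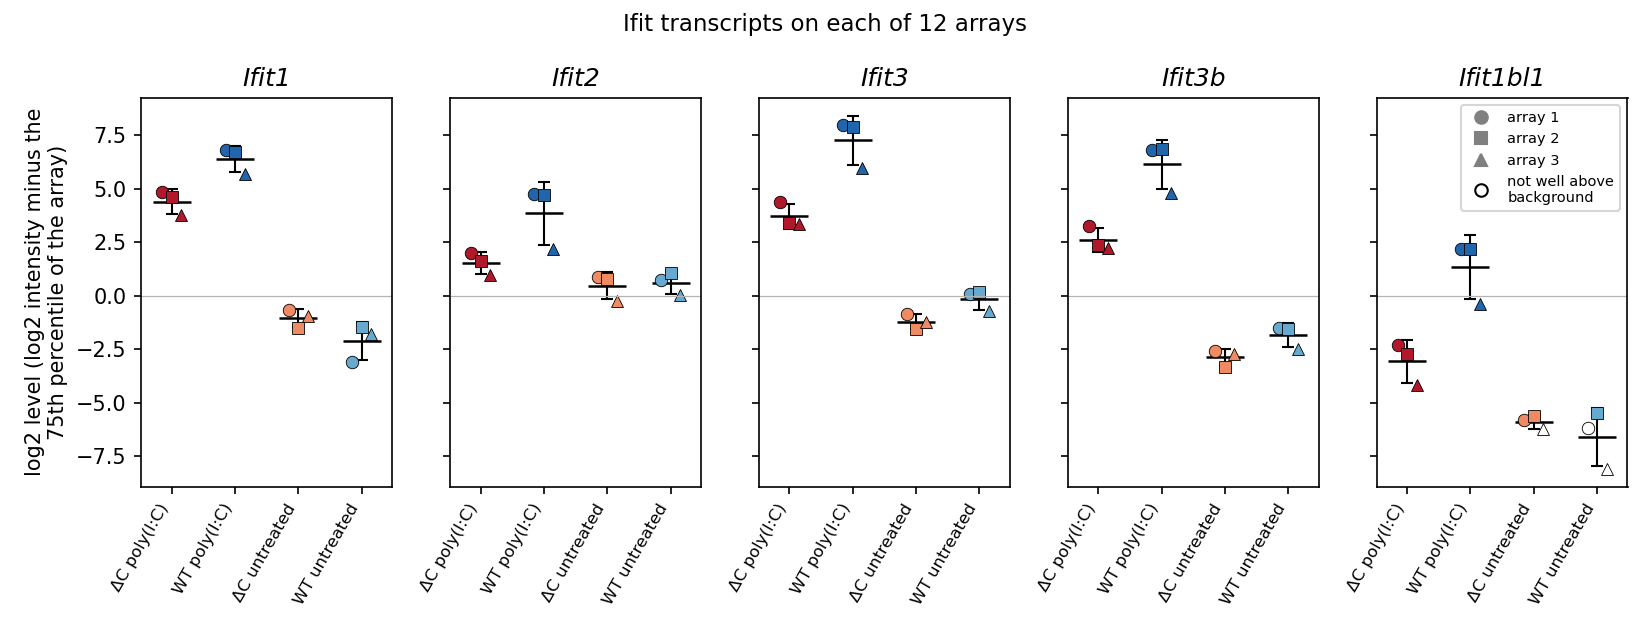
Levels of the 5 Ifit genes (log2 intensity minus the 75th percentile of the array) on each of 12 arrays, by group, with a symbol for each array number, open symbols where the probe was not well above background, and a line and bars for the mean and SD of 3 arrays. Every ΔC poly(I:C) array lies below every WT poly(I:C) array for all 5 genes, and array 3 is the lowest of both treated groups.

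In WT cells, poly(I:C) raised 5 of 5 members, against 5.24% of all genes tested. Ifit1bl1 had passed the filter on dim probes through its treated arrays, and without it the count was 4 of 4, with a median log2 change of 7.72, against -0.14 over all 15445 genes. Ifit1 averaged 6.41 ± 0.61 in WT poly(I:C) cells and -2.12 ± 0.87 in untreated WT cells (SD, n = 3 each), a log2 change of 8.53 ± 0.47 (SE), or 369-fold (limma adjusted p = 6.09e-06). Ifit3b rose by 8.00 ± 0.53 (adjusted p = 1.78e-05), and Ifit3 by 7.44 ± 0.52 (adjusted p = 2.53e-05). The rise of Ifit1bl1 was 7.92 ± 0.83 (adjusted p = 0.000314), and it was 4.91 with normexp background correction (adjusted p = 0.000215). Ifit2 rose least, by 3.27 ± 0.64, or 9.63-fold (adjusted p = 0.0151). Within slide 2, which held an array of both groups, the WT changes were 3.65 for Ifit2 and 7.64 to 8.39 for the other 4 genes. The call of Ifit2 was lost without WT untreated array 1 (3.34, adjusted p = 0.0556), without WT poly(I:C) array 1 (2.83, adjusted p = 0.078) and without WT poly(I:C) array 2 (2.85, adjusted p = 0.0762), and with only the 6 WT arrays in the fit (3.27, adjusted p = 0.0838). The other 4 genes kept theirs in these fits and when any 1 array was left out.

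In ΔC cells, poly(I:C) raised 3 of 5 members, against 1.82% of all genes tested, and without Ifit1bl1 the count was 3 of 4, with a median change of 5.18, against -0.05 over all genes. Ifit3b rose by 5.49 ± 0.53 (limma adjusted p = 0.000464). Ifit1 averaged 4.41 ± 0.56 in ΔC poly(I:C) cells and -1.03 ± 0.43 in untreated ΔC cells (SD, n = 3 each), a rise of 5.44 ± 0.47 (SE), or 43.4-fold (adjusted p = 0.000206). Ifit3 rose by 4.93 ± 0.52 (adjusted p = 0.000693). The change of Ifit1bl1, whose pass through the filter by treated arrays favours a rise, was 2.84 ± 0.83 (adjusted p = 0.182). With the array number as a replicate block it passed (adjusted p = 0.01), in a fit that called 2.03% of all genes. With normexp background correction the change of Ifit1bl1 was 1.35 (adjusted p = 0.369). The change of Ifit2 was 1.06 ± 0.64 (adjusted p = 0.597), with a 95% interval of -0.37 to 2.49. Within slide 1 the ΔC changes were 1.12 for Ifit2, 3.51 for Ifit1bl1 and 5.23 to 5.83 for the other 3 genes. Under the authors' deposited table with all 12 columns, none of the 5 was called, and 0% of all genes were. Without its mismatched column 3 of the 5 were called, in a fit that called 1.02% of all genes.

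Untreated ΔC and WT cells were set side by side for a basal difference. None of 5 members was called by limma, against 21.2% of all genes. Of the 5, 1, Ifit1, had an unadjusted p under 0.05, as had 35% of all genes. Ifit1 averaged -1.03 ± 0.43 in untreated ΔC cells and -2.12 ± 0.87 in untreated WT cells (SD, n = 3 each), a difference of 1.08 ± 0.47 (SE, adjusted p = 0.131). Ifit3 averaged -1.21 ± 0.36 in untreated ΔC cells and -0.16 ± 0.49 in untreated WT cells, a difference of -1.05 ± 0.52 (adjusted p = 0.181). Ifit3b differed by -1.04 ± 0.53 (adjusted p = 0.196), Ifit2 by -0.13 ± 0.64 (adjusted p = 0.907) and Ifit1bl1 by 0.68 ± 0.83 (adjusted p = 0.588). The 95% intervals of Ifit1 (0.04 to 2.13) and Ifit3 (-2.21 to 0.11) lay on different sides of 0 for most of their length. Within slide 2, which held an array of both groups, the differences were -0.03 for Ifit1, -0.25 for Ifit2, -1.71 for Ifit3, -1.77 for Ifit3b and -0.17 for Ifit1bl1. Without the 4 arrays numbered 3, Ifit3 (-1.32, adjusted p = 0.0333) and Ifit3b (-1.42, adjusted p = 0.023) passed, in a fit that called 36.4% of all genes. With array weights 3 of 5 passed, in a fit that called 48% of all genes.

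In treated cells, 5 of 5 members were lower in ΔC cells than in WT cells, against 9.04% of all genes lower. In all 5, the treated ΔC arrays lay below the treated WT arrays without overlap, as they did for 18.9% of all genes. The median difference of the 5 was -3.54, and that of the 4 without Ifit1bl1 was -2.94, against 0.01 over all genes. Ifit1bl1 averaged -3.07 ± 0.99 in ΔC poly(I:C) cells and 1.33 ± 1.50 in WT poly(I:C) cells (SD, n = 3 each), a difference of -4.40 ± 0.83 (SE), or 21.1-fold lower (limma adjusted p = 0.0048). Ifit3 averaged 3.72 ± 0.58 in ΔC poly(I:C) cells and 7.28 ± 1.14 in WT poly(I:C) cells, a difference of -3.56 ± 0.52, or 11.8-fold lower (adjusted p = 0.00128). Ifit3b was lower by nearly the same amount, -3.54 ± 0.53 (adjusted p = 0.00146), and its dimmer probe by -3.60 ± 0.61. Ifit2 averaged 1.54 ± 0.53 in ΔC poly(I:C) cells and 3.87 ± 1.47 in WT poly(I:C) cells, a difference of -2.33 ± 0.64, or 5.04-fold lower (adjusted p = 0.0282). Ifit1 differed least, by -2.01 ± 0.47, or 4.02-fold lower (adjusted p = 0.0138). Within slide 1, the differences were -1.95 for Ifit1, -2.74 for Ifit2 and -4.52 to -3.53 for the other 3 genes.

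The calls of Ifit3, Ifit3b and Ifit1bl1 after poly(I:C) stood when any 1 array was left out, and those of Ifit1 and Ifit2 did not. Ifit1 was not called without WT poly(I:C) array 1 (-1.82, adjusted p = 0.0599) or array 2 (-1.85, adjusted p = 0.0584), with slide as a block (-1.83, adjusted p = 0.111) or with scan day as a block (-1.62, adjusted p = 0.0911). Ifit2 was not called without any 1 of WT poly(I:C) array 1 (adjusted p = 0.112), WT poly(I:C) array 2 (adjusted p = 0.111), ΔC poly(I:C) array 1 (adjusted p = 0.0501), ΔC poly(I:C) array 2 (adjusted p = 0.0699) or ΔC poly(I:C) array 3 (adjusted p = 0.0781), nor with only the 6 treated arrays in the fit (-2.33, adjusted p = 0.0832). In RNA from whole cultures, fewer cells carrying a transcript and less of it per cell cannot be told apart. Markers differed between genotypes too: the summed level of the 8 fibroblast markers was 8.38 to 9.17 on ΔC arrays, against 9.56 to 10.1 on WT arrays, and that of the 6 macrophage markers was 3.32 to 3.70 on ΔC arrays, against 3.83 to 4.56 on WT arrays (log2 of the summed levels). The endothelial sum was 3.63 to 4.16 on ΔC arrays, against 3.92 to 4.47 on WT arrays, and the epithelial sum was 0.28 to 1.81 on ΔC arrays, against -1.76 to 2.12 on WT arrays. Of 4 epithelial markers, 3 or 4 were above background on ΔC arrays, against 2 on WT arrays. The part of these markers in the lower Ifit levels was not tested.

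**Figure D3:**
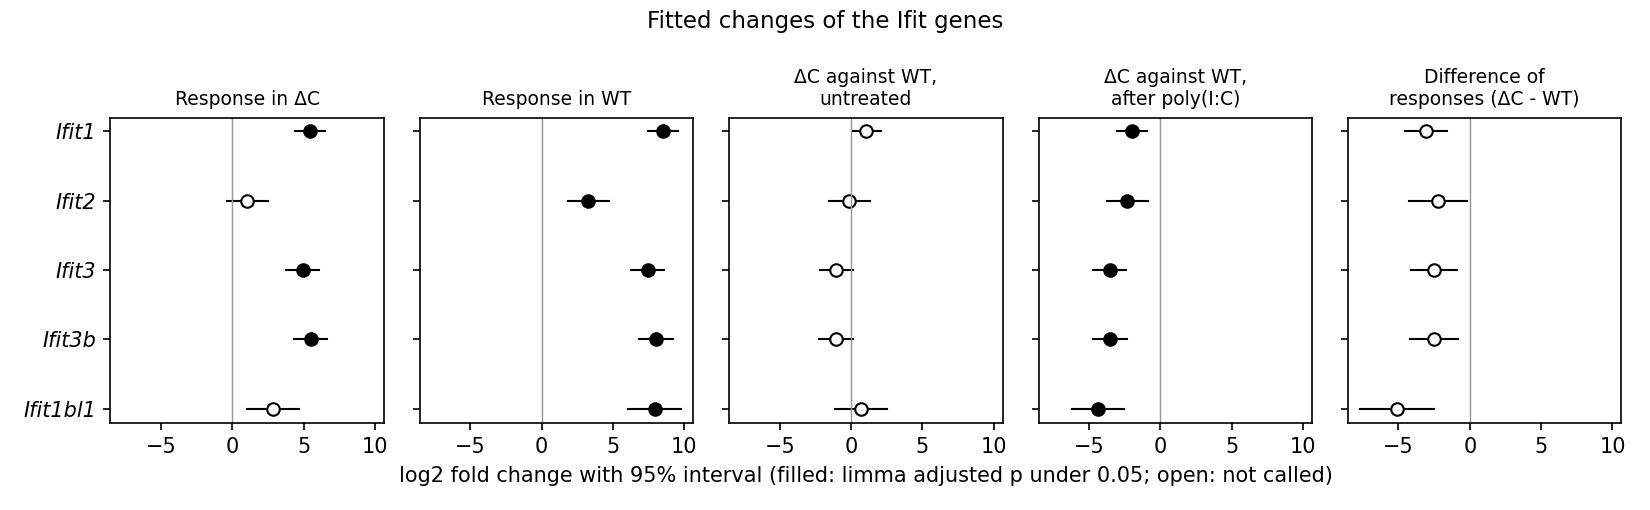
Fitted log2 changes of the 5 Ifit genes with 95% intervals in 5 comparisons, filled where the limma adjusted p was under 0.05. All 5 are filled for the WT response and for ΔC against WT after poly(I:C), 3 for the ΔC response, and none for the untreated comparison or for the difference between responses.

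Whether the response itself differed between genotypes was tested as the ΔC response minus the WT response. All 5 differences were negative, from -5.08 for Ifit1bl1 to -2.21 for Ifit2, with a median of -2.51, against 0.07 over all genes. With Benjamini-Hochberg adjustment over all genes, limma called none of the 5, against 0.0194% of all genes, and adjusted p ranged between 0.279 and 0.86, while all 5 had an unadjusted p under 0.05, as had 5.41% of all genes. For Ifit1 the difference was -3.09 ± 0.66 (SE, 95% interval -4.57 to -1.61). It was -2.51 ± 0.74 for Ifit3 and -2.51 ± 0.75 for Ifit3b.

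Taken by array number, the ΔC response of Ifit1 was 5.50, 6.10 and 4.72 for numbers 1 to 3, against 9.90, 8.21 and 7.48 for the WT response. The ΔC response of Ifit2 was 1.12, 0.84 and 1.22, against 4.00, 3.65 and 2.15 for the WT response. For Ifit1bl1 the ΔC response was 3.51, 2.94 and 2.06, against a WT response of 8.42, 7.64 and 7.70. In 5 of 5 members every ΔC response lay below every WT response, as in 6.85% of all genes. The call depended on WT poly(I:C) array 3: without it, all 5 differences passed, with adjusted p of 0.0391 for Ifit1, 0.0369 for Ifit2, 0.0198 for Ifit3, 0.0217 for Ifit3b and 0.022 for Ifit1bl1, in a fit that called 1.36% of all genes. With the replicate block, 1 of 5 passed, Ifit1bl1 (adjusted p = 0.0171), in a fit that called 0.265% of all genes.

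**Figure D4:**
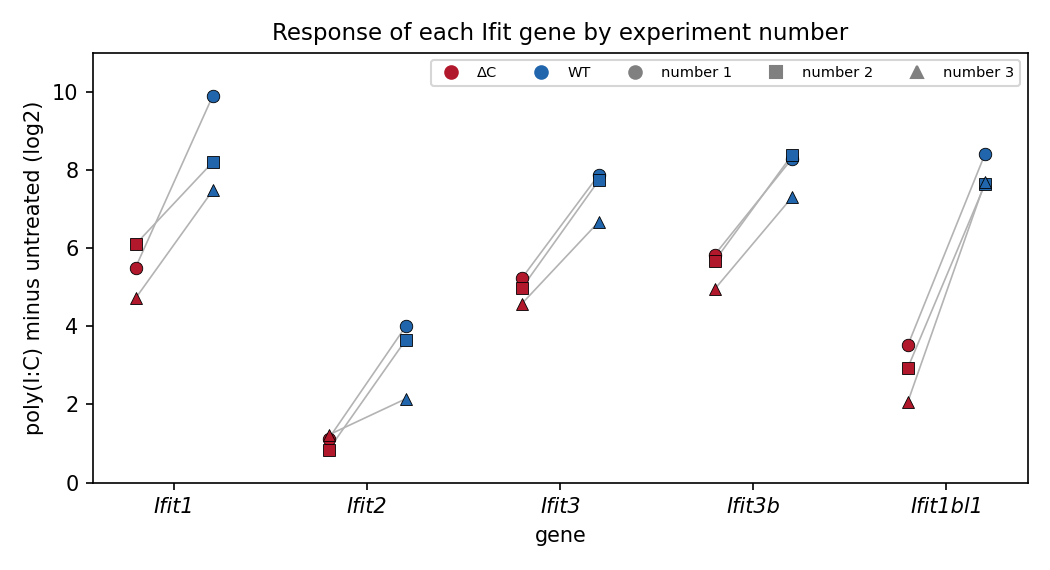
Response to poly(I:C) (log2 level with poly(I:C) minus log2 level untreated) of each Ifit gene for each of 3 array numbers, ΔC at the left and WT at the right of each pair, joined by number. Each ΔC point lies below all 3 WT points of its gene.

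Array 3 was the lowest of its group for 5 of 5 members in ΔC poly(I:C) cells and for 5 of 5 in WT poly(I:C) cells, against 35.6% and 33.7% of all genes in those groups. In untreated cells it was the lowest for 2 of 5 members among ΔC arrays against 42.1% of all genes, and for 4 of 5 among WT arrays, against 37.8%. WT poly(I:C) array 3 was scanned on day 3 of 3, on a slide shared with untreated ΔC array 3 alone, so that experiment, slide and scan day cannot be told apart for it. Arrays numbered 3 lay on slide 4 for ΔC poly(I:C) and untreated WT cells.

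The members also moved unequally within an array. The difference between the Ifit1 and Ifit3 levels of the same array was 0.43 to 1.18 on ΔC poly(I:C) arrays, against -1.18 to -0.25 on WT poly(I:C) arrays. Untreated, it was 0.05 to 0.28 on ΔC arrays, against -3.20 to -1.05 on WT arrays. In both conditions all ΔC arrays lay above all WT arrays for this pair. The share of gene pairs that separate in this way was not computed, and untreated, limma called neither Ifit1 nor Ifit3 between genotypes. This separation alone therefore does not show a genotype effect on the pair. The sign of such a difference depends on the probes and does not say which transcript was more abundant. For Ifit3 against Ifit3b the genotypes agreed within their spread, with a mean of 1.10 ± 0.04 on ΔC poly(I:C) arrays and 1.12 ± 0.06 on WT poly(I:C) arrays, and of 1.67 ± 0.14 on untreated ΔC arrays and 1.68 ± 0.08 on untreated WT arrays (SD, n = 3 each). These are descriptions of pairs chosen after their values were seen.

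**Figure D5:**
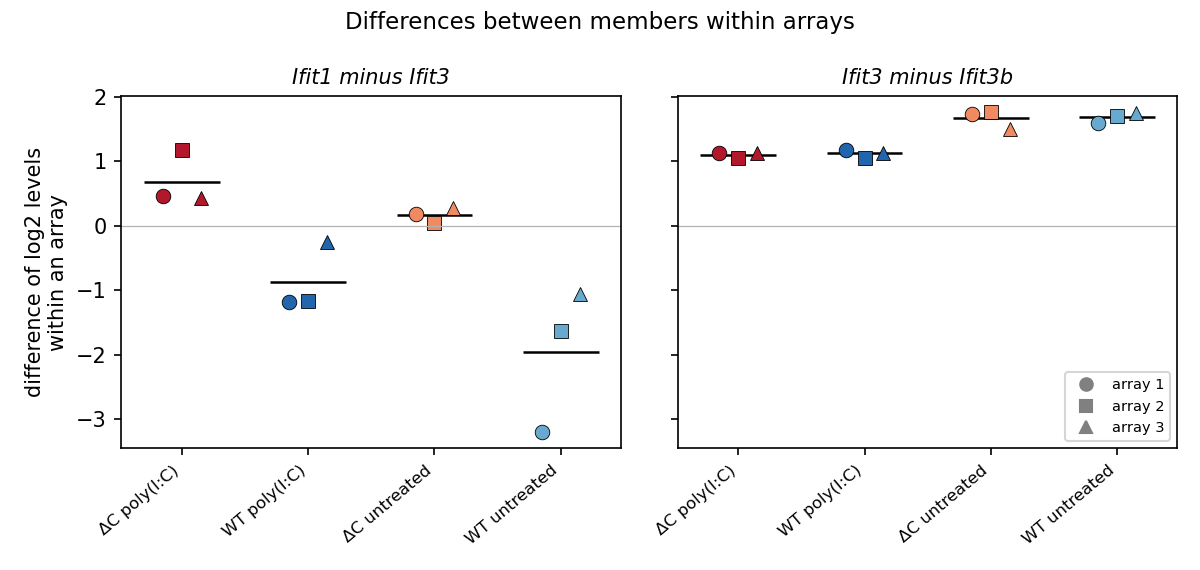
Difference between the log2 levels of 2 Ifit probes on the same array, by group, with a symbol for each array number and a line for the mean of 3 arrays. Ifit1 minus Ifit3 is higher on all ΔC arrays than on the WT arrays of the same condition, and Ifit3 minus Ifit3b is alike in both genotypes and lower after poly(I:C).

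Ifit1bl2, the family gene of the cluster that is no member here, is named after its values were seen. It stood at 0.41, 0.15 and -0.24 on ΔC poly(I:C) arrays, against 0.91, 0.85 and 0.30 on WT poly(I:C) arrays. It rose in WT cells by 1.34 ± 0.23 (adjusted p = 0.00751). In ΔC cells its change was 0.12 ± 0.23 (limma adjusted p = 0.893). In ΔC against WT cells, Ifit1bl2 differed by 0.65 ± 0.23 untreated (adjusted p = 0.0748) and by -0.57 ± 0.23 after poly(I:C) (adjusted p = 0.108).

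Across the 12 arrays, the levels most like those of Ifit1 were those of Gbp3 (Pearson r = 0.992), which encodes a guanylate-binding GTPase, Cxcl10 (0.992), a chemokine, Isg15 (0.989), a ubiquitin-like modifier, Rsad2 (0.987), the antiviral enzyme viperin, and Ccl5 (0.987), a chemokine. Among the members, r with Ifit1 was 0.956 for Ifit3b, 0.949 for Ifit3, 0.918 for Ifit1bl1 and 0.813 for Ifit2. The arrays fall into treated and untreated clusters, so that all these values share the split by treatment. After poly(I:C), Rsad2 stood at -3.33 in ΔC against WT cells, Gbp3 at -1.59, Cxcl10 at -1.35, Isg15 at -1.32 and Ccl5 at -0.85.

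The genes that act before and around the Ifit proteins were described from 6 lists, for which limma called no gene in the difference between responses. The counts of each list stand against the shares of all genes given above: 5.24% higher in the WT response, 1.82% higher in the ΔC response, 21.2% called in either direction between untreated genotypes, and 9.04% lower in ΔC cells after poly(I:C). Of 13 type I and III interferon genes tested of 20 listed, 12 rose in WT cells, with a median change of 3.85, and 5 rose in ΔC cells, with a median of 2.24. Ifnb1, Ifna4 and Ifna16 stand in both counts although they passed the filter on dim probes through treated arrays alone, which favours a rise. Once treated, 10 of 13 were lower in ΔC cells, with a median of -2.13. Ifnb1, encoding interferon-β, was not well above background on any untreated WT array and stood at least 4744-fold higher with poly(I:C) in WT cells. It averaged 5.15 in ΔC poly(I:C) cells and 6.31 in WT poly(I:C) cells, a difference of -1.17 ± 0.67 that did not pass (adjusted p = 0.251). Ifna4, an interferon-α gene, rose at least 69.8-fold in ΔC cells and at least 270-fold in WT cells. Between genotypes after poly(I:C), Ifna7 (-2.76 ± 0.60, adjusted p = 0.0101) and Ifna12 (-2.42 ± 0.60, adjusted p = 0.0174) differed most, and since Ifna transcripts are close to one another in sequence their probes may share signal. No interferon gene was called between untreated genotypes, and 0 had an unadjusted p under 0.05 there, against 35% of all genes. The largest differences were those of Ifna14 (-0.65 ± 0.56) and Ifnab (-0.65 ± 0.56).

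Of 14 RNA sensors and adaptors, 7 rose in WT cells, against 5.24% of all genes, and 3 in ΔC cells, against 1.82%. Between untreated genotypes 3 of 14 were called, a share near the 21.2% of all genes. Ifih1, encoding the double-stranded RNA sensor MDA5, rose by 3.33 ± 0.42 in ΔC cells (adjusted p = 0.00202) and by 6.31 ± 0.42 in WT cells (adjusted p = 1.78e-05), and it was already higher in untreated ΔC cells, by 2.69 ± 0.42 (adjusted p = 0.00167). Ifih1 differed by -0.29 ± 0.42 between genotypes after poly(I:C) (adjusted p = 0.669). Tlr3, the endosomal double-stranded RNA receptor, was higher in untreated ΔC cells by 2.38 ± 0.63 (adjusted p = 0.0237). Dhx58 (-1.62 ± 0.47, adjusted p = 0.0356), encoding the RNA-binding helicase LGP2, and Trim25 (-1.47 ± 0.39, adjusted p = 0.0239), a ubiquitin ligase of the RIG-I pathway, were the 2 of 14 lower in ΔC cells after poly(I:C), where 9.04% of all genes were lower. Ddx58, encoding the RNA sensor RIG-I, rose by 2.48 ± 0.38 in ΔC cells (adjusted p = 0.00749) and by 3.76 ± 0.38 in WT cells (adjusted p = 0.000273). Irf7, an interferon regulatory factor, rose by 5.92 ± 0.73 in WT cells (adjusted p = 0.000852), and its change in ΔC cells was 3.31 ± 0.73 (adjusted p = 0.0531).

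Of 10 genes of the interferon receptor and ISGF3, 6 rose in WT cells and 5 in ΔC cells, and 5 were lower in ΔC cells after poly(I:C). Usp18, a brake on receptor signalling, rose by 4.80 ± 0.50 in ΔC cells (adjusted p = 0.000671) and by 7.83 ± 0.50 in WT cells (adjusted p = 1.59e-05). Isg15 rose by 3.71 ± 0.31 in ΔC cells (adjusted p = 0.000163) and by 5.64 ± 0.31 in WT cells (adjusted p = 6.09e-06). After poly(I:C), Usp18 differed by -2.01 ± 0.50 in ΔC against WT cells (adjusted p = 0.0181), and Socs1, another inhibitor, by -1.83 ± 0.34 (adjusted p = 0.0048). Irf9, encoding a subunit of ISGF3, was lower in ΔC cells after poly(I:C) (-0.70 ± 0.21, adjusted p = 0.0352), and Stat2, encoding another subunit, differed by -1.25 ± 0.46 (adjusted p = 0.078). The receptor genes Ifnar1 and Ifnar2 were called in none of the 4 comparisons of groups. None of the 10 was called between untreated genotypes and 0 had an unadjusted p under 0.05, against 35% of all genes. The largest differences there were those of Usp18 (1.03 ± 0.50) and Isg15 (0.60 ± 0.31).

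Of 14 genes for forming or removing the mRNA cap, the structure that IFIT1 reads, 2 rose in WT cells. In ΔC cells limma called none, and 0 had an unadjusted p under 0.05, against 10.9% of all genes. The 2 in WT cells were Dcp2, the decapping enzyme, at 1.91 ± 0.29 (adjusted p = 0.00308), and Cmtr1, which adds the cap methyl mark that shields host messages, at 0.97 ± 0.21 (adjusted p = 0.0228). In ΔC cells, Dcp2 changed by 0.40 ± 0.29 (adjusted p = 0.657) and Cmtr1 by 0.13 ± 0.21 (adjusted p = 0.863), and the largest change was that of Nudt16, a decapping enzyme, at -0.57 ± 0.35 (adjusted p = 0.597). After poly(I:C), Dcp2 (-1.54 ± 0.29, adjusted p = 0.00454) and Rnmt, the cap guanine methyltransferase (-0.74 ± 0.23, adjusted p = 0.0456), were lower in ΔC cells and Dcp1b, a decapping cofactor, was higher (1.21 ± 0.23, adjusted p = 0.00503). Dcp1b was also higher in untreated ΔC cells, by 1.49 ± 0.23 (adjusted p = 0.00169), where Dcps, the scavenger decapping enzyme, was lower (-0.49 ± 0.12, adjusted p = 0.0193).

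Subunits of eIF3, the initiation factor that mouse IFIT1 and IFIT2 can bind, were called by limma in neither response. At an unadjusted p under 0.05 there were 0 of 13 in ΔC cells, against 10.9% of all genes, and 1 in WT cells, against 26.2%. The largest changes were 0.18 ± 0.17 for Eif3a in ΔC cells and 0.70 ± 0.36 for Eif3j1 in WT cells. Untreated, Eif3a was higher in ΔC cells (0.58 ± 0.17, adjusted p = 0.0366) and Eif3h (-0.69 ± 0.13, adjusted p = 0.00505) and Eif3e (-0.48 ± 0.15, adjusted p = 0.0469) were lower, 3 of 13 in all and near the 21.2% of all genes. After poly(I:C), 2 of 13 were lower in ΔC cells, Eif3e (-0.49 ± 0.15, adjusted p = 0.0453) and Eif3h (-0.44 ± 0.13, adjusted p = 0.0389), against 9.04% of all genes lower.

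Of 8 genes near the Ifit cluster, 3 rose in WT cells and 1 in ΔC cells. Ch25h, the interferon-inducible cholesterol 25-hydroxylase, rose by 2.53 ± 0.52 in ΔC cells (adjusted p = 0.038) and by 6.76 ± 0.52 in WT cells (adjusted p = 4.85e-05), and it was lower in ΔC cells after poly(I:C) (-4.10 ± 0.52, adjusted p = 0.00058). Fas, a death receptor, rose in WT cells by 2.37 ± 0.43 (adjusted p = 0.00962), and its change in ΔC cells was 0.93 ± 0.43 (adjusted p = 0.471). Stambpl1, a deubiquitinase, rose in WT cells by 0.78 ± 0.19 (adjusted p = 0.037). Pank1, an enzyme of coenzyme A synthesis, was higher in ΔC cells after poly(I:C) (0.84 ± 0.25, adjusted p = 0.0375). Between untreated genotypes none of the 8 was called by limma. An unadjusted p under 0.05 was found for 3 of 8, a share near the 35% of all genes. The largest differences were those of Acta2, smooth muscle actin (1.82 ± 0.65), and Slc16a12, a membrane transporter (-0.78 ± 0.38).

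In the difference between responses, the count with an unadjusted p under 0.05 was 2 of 13 interferon genes, 6 of 14 RNA sensors and adaptors, 6 of 10 receptor and ISGF3 genes, 3 of 14 cap genes, 0 of 13 eIF3 subunits and 2 of 8 genes near the cluster, against 5.41% of all genes. The largest difference of each list was that of Ch25h (-4.23 ± 0.74, adjusted p = 0.213), Tlr3 (-3.98 ± 0.89, adjusted p = 0.321), Usp18 (-3.03 ± 0.71, adjusted p = 0.361), Ifna7 (-2.45 ± 0.85, adjusted p = 0.675), Dcp2 (-1.50 ± 0.40, adjusted p = 0.446) and Eif3j1 (-0.60 ± 0.51, adjusted p = 0.987).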

How the data were processed

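RNA of 12 samples was measured on single-colour arrays. Per the file headers, Feature Extraction 10.7.3.1 read each scan and gave the deposited spot intensity, background-subtracted and spatially detrended, with no scaling between arrays. A further deposited table holds log2 values made by the authors. The submitters' processing notes name limma without a version. Probe accessions were matched to symbols through RefSeq, which named 27235 of 55681 probes.

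Here, log2 intensity was averaged over the spots of a probe and reduced by the array's 75th percentile. Control spots and outlier spots were left out. A gene entered the test if, in some group, all 3 arrays showed its probe well above background, and the brightest probe stood for its gene, which left 15445 genes. A probe with several spots counted as well above background where most of them were. That rule was set after the data had been seen, and counting any spot gave the same calls for the 5 members. Limma 3.58.1 in R 4.3.3 fitted 1 mean per group over 12 arrays (8 residual degrees of freedom, 2.19 prior), and 5 contrasts were tested two-sided, with Benjamini-Hochberg adjustment over all genes and a call at an adjusted p under 0.05. The method was tested on simulated data with independent noise on each array. That setting lacks the shared deviations of same-numbered arrays described below, so that it does not test their effect. A bound, "at least N-fold", sets a group that was below background on every array at each array's lowest signal among probes well above background. Precision is limited by 3 arrays a group.

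Same-numbered arrays deviated together from their group means (r between 0.115 and 0.651), and per the labels there were 3 independent experiments. The numbers were therefore taken to pair the arrays in the responses by array number and in the replicate block, which was an alternative. The main fit had no block, so that its tests and SE are unpaired. The members and lists were chosen with earlier results of these data known. The text names the 5 members, the targeted gene, the 5 genes most correlated with Ifit1 and, from each list, by comparison, the 2 called genes that rose most and the 2 that fell most, or, with no call, those that changed most. Other list genes, such as Stat2, Irf9, Ifnar1, Ifnar2 and Stambpl1, were named after their values were seen. Alternatives were other scalings, background correction, the deposited table, no filter, other probe rules, weights, blocks and arrays left out.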

Additional observations from a re-analysis of the deposited data

How the results depend on the processing

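Each of the 5 changes of each member was recomputed under 27 to 29 alternatives, giving 700 values, of which 649 kept their direction and their side of the threshold, 18 lost the call, 26 gained it and 7 changed sign, all 7 without a call. Changes of sign were those of ΔC against WT untreated for Ifit1bl1, at -0.19 with normexp background correction and -0.070 without WT untreated array 3 (-0.070 to 1.24 over leaving out each array), and for Ifit2, at 0.0079 with array weights, 0.025 with scan day as a block, 0.10 without WT untreated array 2, 0.24 without ΔC untreated array 3 (-0.42 to 0.24 over leaving out each array) and 0.24 without the arrays of the third scan day. The count of members called in the difference between responses was 0, against 5 with array weights (4.49% of all genes called), 1 with the replicate block (0.265%), 2 without the 4 arrays numbered 3 (2.94%) and 4 without the third scan day (1.32%), against 0.0194% of all genes as reported, and it ran from 0 to 5 over leaving out each array. After poly(I:C), ΔC against WT, the count was 5 and ran from 3 to 5 over leaving out each array. Ifit1 was not called there with the authors' table (-4.29), slide as a block (-1.83) or scan day as a block (-1.62). Untreated, the count was 0, against 3 with array weights (48% of all genes) and 2 without the arrays numbered 3 (36.4%). In the ΔC response it was 3 (1.84% of all genes called). There it was 0 with the authors' table of 12 columns (0% of all genes) and 5 without the arrays numbered 3 (13.1%). In the WT response it was 5 and ran from 4 to 5 over leaving out each array. With only the groups compared in the fit, Ifit2 lost its call in the WT response and in ΔC against WT after poly(I:C), leaving 4 in each. Normexp gave Ifit1bl1 4.91 in the WT response and 1.35 in the ΔC response. The replicate block changed no member's call beyond Ifit1bl1 in the ΔC response and in the difference. Scaling each array to its median set the median of all genes at -0.19, against -0.05, for the ΔC response and -0.14, against 0.01, for ΔC against WT after poly(I:C), and it gave 583 genes higher and 14 lower in the WT response, against 809 and 237. For ΔC against WT it gave 1264 higher and 696 lower untreated, against 1686 and 1581, and 999 higher and 1179 lower after poly(I:C), against 1837 and 1396. The authors' table called 344 genes higher in the WT response and 0 in the ΔC response, against 809 and 281. The cause of these changes was not tested. Normexp was run on median spot signals, an alternative chosen after seeing the data, as were the deposited table without its mismatched column, the fit without the third scan day, the any-spot filter and the other Ifit3b probe; normexp on mean signals was not run. Signal near background limits the changes of Ifit1bl1.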
